A study of Mus musculus with 8 samples.

Results

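The 10 genes described here encode the enzymes and regulators that build triglyceride in the liver cell and break it down again: Gpam, Agpat2, Lpin1, Lpin2, Mogat1, Dgat1, Dgat2, Pnpla2, Abhd5 and G0s2. They were chosen by name, for their place in the pathway, with earlier results of these data known. All 10 were found among the 35976 genes of the deposited table and passed the filter on low counts that left 14036 genes for testing. RNA was sequenced from whole liver of mice on a high fat diet, 5 samples of genotype CTRL (titled WT) and 3 samples with a hepatocyte knockout of Opa1 (OPA1 LKO, here OPA1_LKO). The Opa1 protein joins inner mitochondrial membranes during fusion, and the study asks what its loss in hepatocytes does to fatty liver. All 8 samples share the diet, so no comparison with a lean liver can be made. The labels give no age, sex or Cre line and do not say whether each sample is a separate animal, so the variation behind each p-value may be partly technical.

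Triglyceride is assembled on glycerol phosphate. Gpam and then Agpat2 add fatty acids to make phosphatidate, lipins remove its phosphate to give diacylglycerol, and Dgat1 and Dgat2 add the last fatty acid. Mogat1 makes diacylglycerol from monoacylglycerol instead. In the opposite direction, the lipase ATGL, product of Pnpla2, starts lipolysis at the lipid droplet, Abhd5 activates it and G0s2 inhibits it.

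Lpin1, the gene with the largest rise of the 10, is expressed from several transcripts, and the coding sequences of those measured here differ in 1 exon. The exon is held by transcript NM_015763.4, the form known as lipin-1β (924 residues), and is absent from NM_172950.3, the form known as lipin-1α (891 residues). It lies at chr12:16571164-16571262 on the minus strand of GRCm38, is 99 bases long and adds 33 residues. The last exon, mostly non-coding, also differs in length, at 2904 bases in NM_015763.4 and 1533 bases in NM_172950.3. The sequences below, from the GENCODE transcripts of that build and read 5′ to 3′ on the transcript, are shown because the level of each form is given further on; capitals mark the exon in the first and the bases on either side of the splice junction in the second.
NM_015763.4: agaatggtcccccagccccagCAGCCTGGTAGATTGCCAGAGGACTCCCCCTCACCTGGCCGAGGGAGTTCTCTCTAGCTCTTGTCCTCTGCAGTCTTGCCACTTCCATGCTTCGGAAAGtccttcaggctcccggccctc
NM_172950.3: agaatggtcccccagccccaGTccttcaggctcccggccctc

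Library totals were between 16076404 and 20471271 estimated reads. Opa1 itself was at 39.9 to 57.6 CPM (counts scaled by TMM library sizes to a common total) in the 5 CTRL libraries and at 24.7 to 34.4 CPM in the 3 OPA1_LKO libraries, a log2 fold change of -0.63 ± 0.17 (SE) with an adjusted p of 0.0539 by edgeR's quasi-likelihood test with Benjamini-Hochberg adjustment over all 14036 genes. That adjusted p was 0.0272 without CTRL replicate 1 and 0.0726 to 0.236 without any one of the others, highest without OPA1_LKO replicate 1. Markers of hepatocytes summed to between 82540 and 142100 CPM in every library. A pair of CTRL libraries stood apart from the rest. In CTRL replicate 1 Apoe measured 134 CPM, where every other library had at least 20760 CPM, and Xist measured 8.13 CPM, where no other library had more than 0.185 CPM. Transcripts of the Y-linked genes Ddx3y, Eif2s3y, Kdm5d and Uty were present in every library, with Eif2s3y at 27.2 to 46.7 CPM. They measured 7.91, 35.85, 7.28 and 4.30 CPM in CTRL replicate 1. Kupffer cell and macrophage markers summed to 943 CPM in it and to between 203 and 420 CPM elsewhere. A list of 4 pancreas markers (Cpa1, Pnlip, Cel and Amy2a5), chosen after values were seen, summed to 22.5 CPM in it and to at most 2.75 CPM elsewhere. CTRL replicate 3 had markers of the small intestine, a list chosen after their values were seen, at a sum of 405 CPM against 0 to 5.49 CPM. The fold changes and calls, the Lpin1 transcript differences and the ratios below were therefore also computed without each library in turn.

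Of the 10 genes, 3 passed the test at an adjusted p under 0.05. Lpin1 and Pnpla2 were higher and Mogat1 was lower in OPA1_LKO. The share called among all tested genes was 6.03%, made up of 3.34% higher (469 genes) and 2.69% lower (377 genes). With upper-quartile scaling the split among all genes was 547 higher and 270 lower. The remaining 7 genes missed the threshold, 6 of them with a fold change below 0. The median log2 fold change of the 10 genes was -0.32, beside -0.03 over all tested genes. In CPM the groups did not overlap for 5 of the 10 genes, namely Lpin1, Lpin2 and Pnpla2 (higher) and Mogat1 and Gpam (lower), beside 16.4% of all tested genes. In bulk tissue, a lower level can come from fewer cells of a type or from less RNA per cell, and these cannot be told apart.

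**Figure D1:**
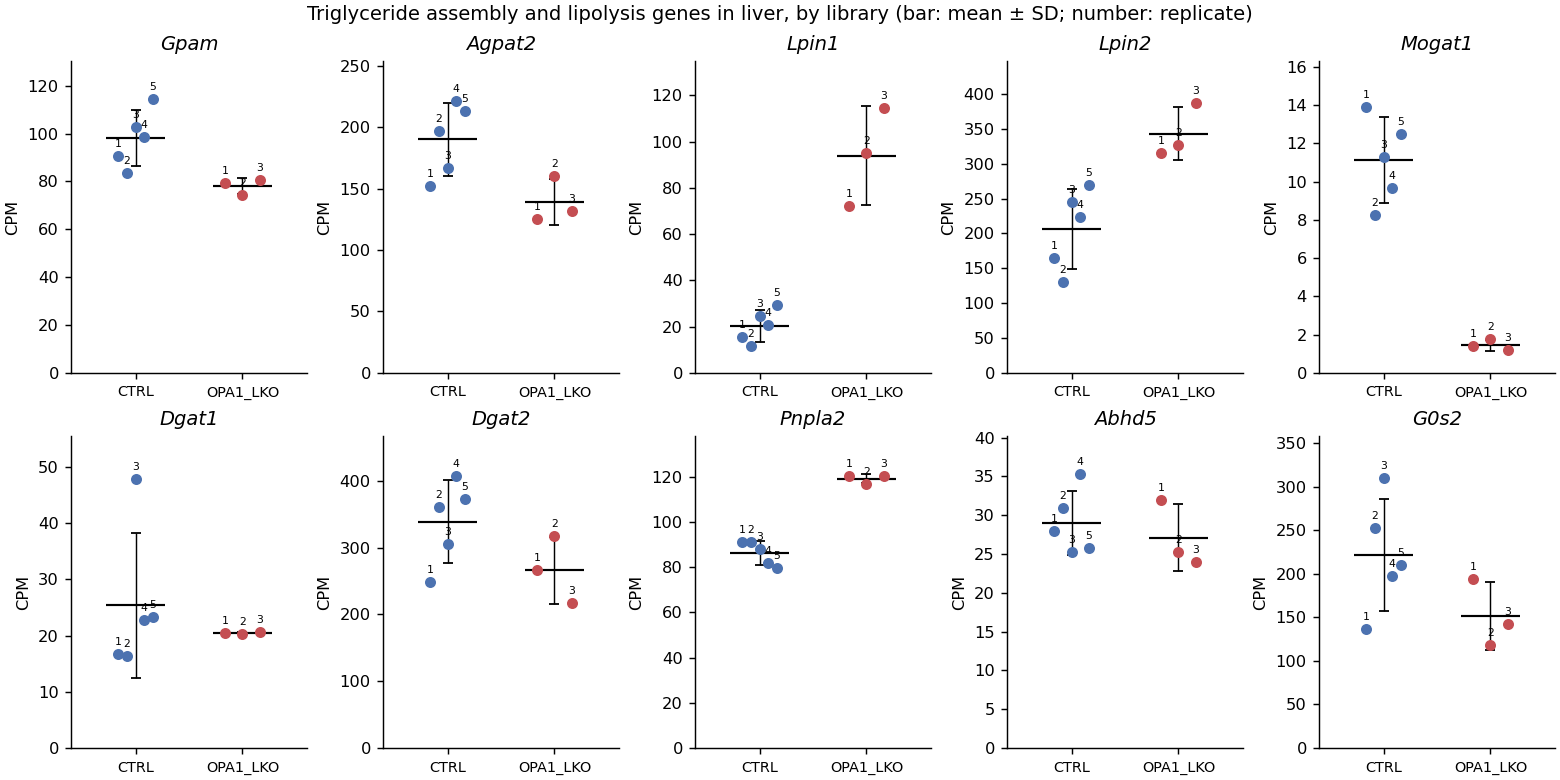
CPM of each of the 10 genes on the vertical axis for 5 CTRL and 3 OPA1_LKO libraries; points are libraries numbered by replicate, and bars are the mean ± SD. Lpin1, Lpin2 and Pnpla2 are higher in every OPA1_LKO library than in any CTRL library, Mogat1 and Gpam are lower, and CTRL replicate 3 stands alone in Dgat1 at 47.75 CPM.

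Gpam (chromosome 19, 55067635 to 55127319; all gene positions are GRCm38.p6) encodes the mitochondrial enzyme that adds the first fatty acid to glycerol phosphate. It measured 90.7, 83.7, 102.8, 98.6 and 114.3 CPM in CTRL replicates 1 to 5 and 79.5, 74.3 and 80.4 CPM in OPA1_LKO replicates 1 to 3. All OPA1_LKO libraries lay below all CTRL libraries, by a small margin. The log2 fold change of -0.33 ± 0.14 had an edgeR adjusted p of 0.177. Agpat2 (chromosome 2, 26593057 to 26604417), whose enzyme adds the second fatty acid and whose loss causes lipodystrophy in people, measured 151.8, 197.2, 166.6, 221.5 and 212.9 CPM in CTRL and 125.5, 160.2 and 131.8 CPM in OPA1_LKO. Here the highest OPA1_LKO library exceeded the lowest CTRL library, and the log2 fold change was -0.45 ± 0.17 (edgeR adjusted p 0.143).

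Of the lipins, 1 of 3 passed. Lpin1 (chromosome 12, 16535669 to 16653903) encodes lipin-1, a phosphatidate phosphatase that also acts in the nucleus as a coactivator of fatty acid oxidation genes. Its levels were 15.4, 11.5, 24.4, 20.8 and 29.2 CPM in CTRL and 72.2, 94.9 and 114.7 CPM in OPA1_LKO. The lowest OPA1_LKO library was more than double the highest CTRL library. The log2 fold change was 2.21 ± 0.28 (4.64-fold higher; edgeR adjusted p 0.00262), and the call held in all 8 other fits and without each library in turn, at an adjusted p of 0.00234 to 0.0166. Lpin2 (chromosome 17, 71183532 to 71249818), which had a higher TPM than Lpin1 in every library, measured 164.5, 129.7, 244.7, 223.5 and 269.5 CPM in CTRL and 316.0, 326.4 and 386.6 CPM in OPA1_LKO. The groups did not overlap, but the spread within CTRL was wide, and the log2 fold change of 0.73 ± 0.23 missed the threshold (edgeR adjusted p 0.0904). It passed with DESeq2 (adjusted p 0.0263) and on the log2(TPM + 1) scale with limma (adjusted p 0.0258). Lpin3, the remaining lipin, measured 3.32 to 7.66 CPM in CTRL and 3.46 to 6.21 CPM in OPA1_LKO, at a log2 fold change of -0.03 ± 0.29 (edgeR adjusted p 0.956).

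The transcript table resolved the Lpin1 rise into its forms. Of 14 Lpin1 transcripts listed, 3 had a mean of at least 0.1 TPM (a level per transcript length), and none of the other 11 passed 0.2 TPM in any library. The estimates rest on 1743 Lpin1 reads in the 5 CTRL libraries together and 5611 in the 3 OPA1_LKO libraries.

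NM_172950.3, the form without the 99-base exon, measured 2.46, 1.85, 2.41, 2.53 and 2.98 TPM in CTRL and 8.93, 9.56 and 14.16 TPM in OPA1_LKO. NM_015763.4, with the exon, measured 1.11, 0.52, 1.53, 0.85 and 2.58 TPM in CTRL and 5.59, 10.83 and 7.06 TPM in OPA1_LKO. Neither form overlapped between the groups, and the ratio of group means was 4.45 for the form without the exon and 5.94 for the form with it. The share of the form with the exon in the Lpin1 total was 32.5% ± 10.1 in CTRL (SD, n = 5) and 39.2% ± 10.1 in OPA1_LKO (SD, n = 3), and these shares overlapped (exact two-sided permutation p 0.393). Reads on the longer last exon of NM_015763.4 may also enter this split. The levels and shares of the 2 forms therefore do not measure inclusion of the 99-base exon alone.

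The remaining form, NM_001130412.1, codes for the same 891 residues as NM_172950.3 but carries an extra non-coding exon of 144 bases before the start codon, at chr12:16584508-16584651. It was listed at 0 TPM in all 5 CTRL libraries and at 1.39, 0.89 and 0.65 TPM in OPA1_LKO, from 138, 89.2 and 58 estimated reads. It took 8.70%, 4.17% and 2.95% of the Lpin1 total in those libraries. A count of 0 among the 1743 CTRL reads would allow a share of up to 0.172% if every read could identify this form. That bound covers counting error only. Mainly reads touching the 144-base exon can identify the form, so the share that a 0 allows is larger and was not computed. RSEM divides reads between transcripts that share most of their exons, so a 0 is itself an estimate. Of the 6 comparisons of level and share, 4 gave an exact two-sided permutation p of 0.0357. That is the smallest value of this form of the test, which doubles the one-sided p. After Benjamini-Hochberg adjustment over the 6, 0 passed (adjusted p 0.0536). With 4 comparisons at the floor the adjusted p could not be lower, so the 0 says nothing against a difference.

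**Figure D2:**
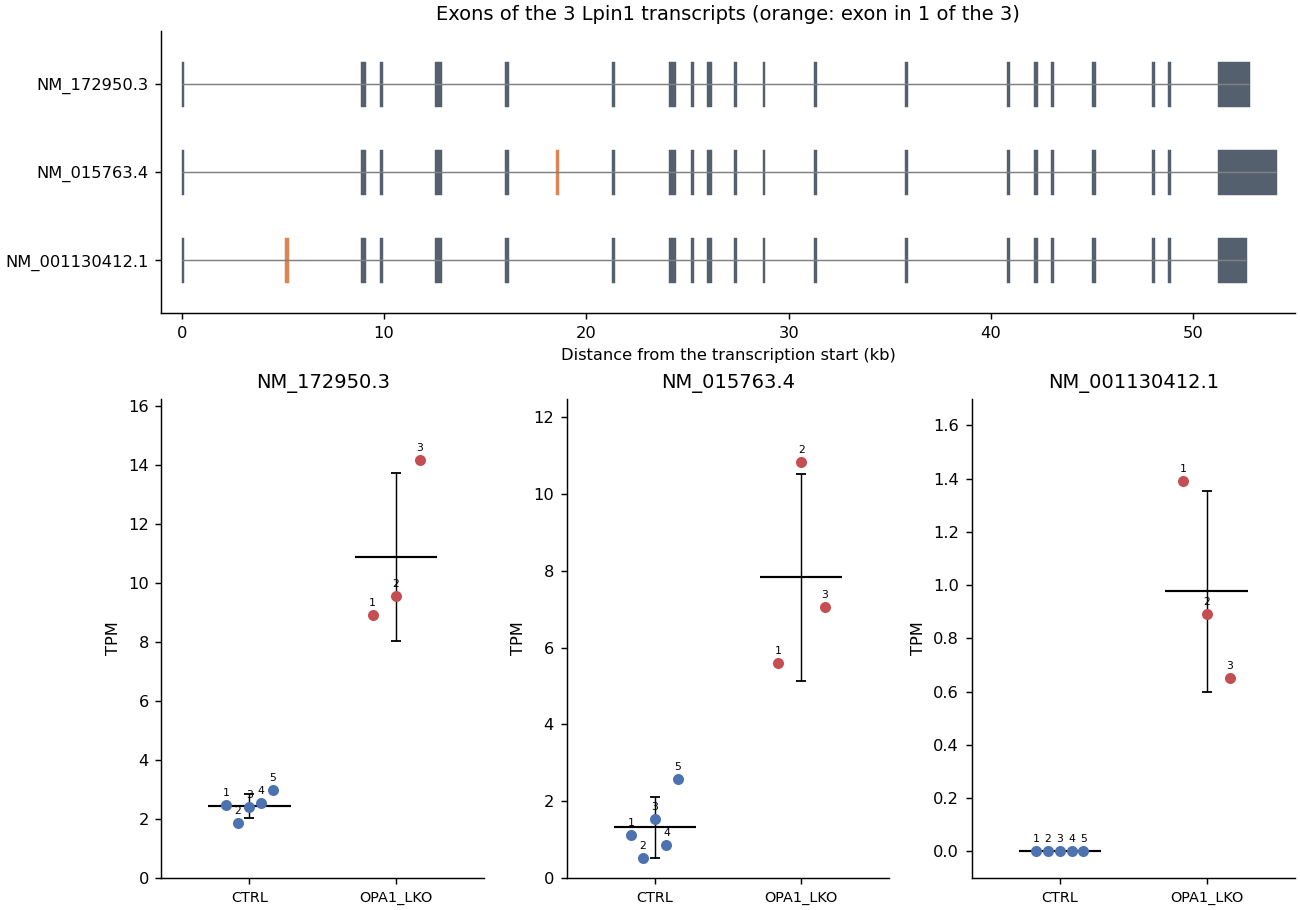
Top, exons of the 3 measured Lpin1 transcripts to scale, as distance from the transcription start in kb, with exons held by 1 of the 3 in orange; bottom, TPM of each transcript by library, with bars for the mean ± SD. The longer last exon of NM_015763.4 is not marked in orange. The forms with and without the coding exon are both higher in all 3 OPA1_LKO libraries, and NM_001130412.1 is at 0 in the 5 CTRL libraries and at 0.65 to 1.39 TPM in OPA1_LKO.

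Lpin2 reads fell mainly on 1 transcript, XM_017317606.1, which held 94.5% of the Lpin2 TPM in CTRL and 94.6% in OPA1_LKO. The share of Lpin1 in the summed TPM of Lpin1, Lpin2 and Lpin3, given as a description with no test, was 7.67%, 7.27%, 7.99%, 7.64% and 8.80% in CTRL. In OPA1_LKO it was 17.0%, 20.8% and 20.98%. The groups did not overlap, and Lpin1 was the smaller part in every library.

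At the step from monoacylglycerol to diacylglycerol the direction was the opposite. Mogat1 (chromosome 1, 78511060 to 78606964), known as a gene that is induced in fatty liver, measured 13.9, 8.26, 11.3, 9.67 and 12.5 CPM in CTRL and 1.39, 1.75 and 1.18 CPM in OPA1_LKO. Every OPA1_LKO library was far below the lowest CTRL library. The log2 fold change was -2.94 ± 0.24 (7.65-fold lower; edgeR adjusted p 0.000436), from 20 to 262 reads a library, and the call held in all 8 other fits and without each library in turn. The OPA1_LKO libraries held 30, 39 and 20 of these reads.

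The enzymes of the last step did not pass. Dgat2 (chromosome 7, 99153663 to 99182713), which is tied to fatty acids newly made in the liver, measured 249.2, 360.3, 305.7, 407.5 and 373.5 CPM in CTRL and 265.9, 316.8 and 216.5 CPM in OPA1_LKO. The groups overlapped, at a log2 fold change of -0.35 ± 0.20 (edgeR adjusted p 0.313). Mogat1 per Dgat2, as a ratio of TPM, was between 0.0456 and 0.135 in CTRL and between 0.0110 and 0.0183 in OPA1_LKO.

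Dgat1 (chromosome 15, 76502012 to 76512021), the acyltransferase that is also abundant in the small intestine, measured 16.8, 16.4, 47.75, 22.8 and 23.3 CPM in CTRL and 20.5, 20.2 and 20.7 CPM in OPA1_LKO. The OPA1_LKO libraries were nearly equal and lay within the CTRL range, and CTRL replicate 3 was about double the next library. The log2 fold change was -0.31 ± 0.32 (edgeR adjusted p 0.594), and without CTRL replicate 3 it was 0.07 (adjusted p 0.824).

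CTRL replicate 3 was also the library with small intestine markers. Alpi, the intestinal alkaline phosphatase, was at 185.8 CPM there and at most 2.33 CPM elsewhere, Sis, the sucrase-isomaltase, at 49.9 CPM and at most 0.823 CPM, and Cdx2, the intestinal transcription factor, at 2.52 CPM and 0 in the other 7 libraries. All 8 markers of the list were highest in this library. Mogat2, the monoacylglycerol acyltransferase of the intestine, was at 6.32 CPM in it and at 0.337 to 0.744 CPM in the other 7. The Dgat1 excess lay in transcript XM_017316426.1, at 25.9 TPM against 5.60 to 12.6 TPM elsewhere. Whether the Dgat1 value of this library includes intestinal RNA was not tested.

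**Figure D3:**
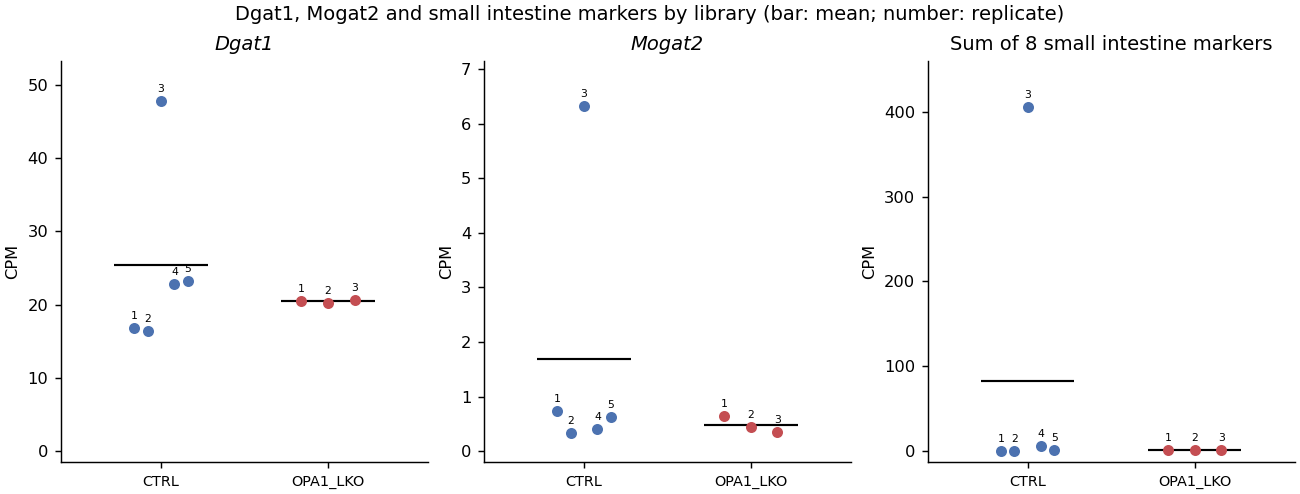
CPM of Dgat1, of Mogat2 and of the sum of 8 small intestine markers on the vertical axis, by library; numbers are replicates and bars are group means. CTRL replicate 3 is the highest library in all 3 panels, at 47.75, 6.32 and 405 CPM.

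In lipolysis, the lipase rose and its regulators did not pass. Pnpla2 (chromosome 7, 141455188 to 141460743) measured 91.1, 91.2, 87.9, 81.9 and 79.7 CPM in CTRL and 120.2, 116.9 and 120.3 CPM in OPA1_LKO. Both groups were tight and did not overlap. The log2 fold change was 0.46 ± 0.11 (1.38-fold higher; edgeR adjusted p 0.0423). The call is near the threshold. It was lost on the log2(TPM + 1) scale with limma (adjusted p 0.0889), without the filter on low counts (edgeR adjusted p 0.0757), and without any one library other than CTRL replicate 1 (edgeR adjusted p 0.0626 to 0.171, and 0.0340 without CTRL replicate 1).

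Abhd5 (chromosome 9, 122351616 to 122381524), the coactivator, measured 27.9, 31.0, 25.2, 35.3 and 25.7 CPM in CTRL and 32.0, 25.3 and 24.0 CPM in OPA1_LKO. The groups overlapped widely, with a log2 fold change of -0.10 ± 0.15 (edgeR adjusted p 0.737) that was above 0 on both TPM scales. G0s2 (chromosome 1, 193272160 to 193273188), the inhibitor, measured 136.9, 252.8, 310.0, 197.8 and 209.7 CPM in CTRL and 194.0, 118.2 and 142.2 CPM in OPA1_LKO. It was the most scattered of the lipolysis genes and overlapped between groups, at a log2 fold change of -0.55 ± 0.26 (edgeR adjusted p 0.237).

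Set against the lipase in the same library, both regulators had lower ratios in OPA1_LKO, as a description with no test. G0s2 per Pnpla2 in TPM was 5.41, 9.96, 12.7, 8.77 and 9.53 in CTRL and 5.82, 3.65 and 4.28 in OPA1_LKO, so that CTRL replicate 1 lay within the OPA1_LKO range. Abhd5 per Pnpla2 was 0.255, 0.284, 0.244, 0.358 and 0.270 in CTRL and 0.221, 0.180 and 0.177 in OPA1_LKO, with no overlap. Adipose tissue also expresses these genes. The adipocyte markers Adipoq, Plin1, Lep and Retn were at most 0.900, 0.168, 0.0559 and 0.540 CPM in any library. Cfd measured 4.51 to 43.9 CPM in CTRL and 2.08 to 8.95 CPM in OPA1_LKO (log2 fold change -2.61 ± 0.71, edgeR adjusted p 0.0588), Fabp4 measured 6.57 to 24.96 CPM and Adrb3 5.91 to 27.2 CPM over all libraries. Of the 8 adipocyte markers, 4 were tested and 1 passed, Pck1, which hepatocytes also express, at a log2 fold change of 1.05. The adipocyte list summed to 806 to 1394 CPM in CTRL and 1704 to 2678 CPM in OPA1_LKO, nearly all of it Pck1, and the part of adipocytes in these values was not tested. Markers of other liver cells were read beside these. Of 8 stellate cell markers 0 passed with edgeR, 4 had an unadjusted p under 0.05 and 1 passed with DESeq2, with sums of 344 to 411 CPM in CTRL and 437 to 752 CPM in OPA1_LKO. Of 7 bile duct markers, 3 were higher in OPA1_LKO (Krt7, Sox9 and Spp1), with sums of 17.5 to 72.6 CPM in CTRL and 141 to 205 CPM in OPA1_LKO. Spp1 alone was 122 to 176 CPM of the OPA1_LKO sums, and Krt19 did not pass (log2 fold change -0.50 ± 1.23), with 22.3 CPM in CTRL replicate 3 and at most 5.67 CPM elsewhere. The part of these cells in the values of the 10 genes was not tested.

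Per transcript length, the order of the 10 genes changed mainly at its lower end. G0s2 was highest in CTRL, at a mean of 322 TPM, above Agpat2 (165 TPM) and Dgat2 (164 TPM), which overlapped each other. Lpin2 (42.1 TPM) and Pnpla2 (35.8 TPM) followed and overlapped. Next came Dgat1 (17.3 TPM), Gpam (17.0 TPM), Mogat1 (13.1 TPM) and Abhd5 (9.98 TPM), each overlapping its neighbour, and Lpin1 was lowest at 3.78 TPM with no overlap with Abhd5. In OPA1_LKO, G0s2 (252 TPM), Dgat2 (147 TPM), Agpat2 (138 TPM), Lpin2 (79.2 TPM) and Pnpla2 (54.7 TPM) again led. Lpin1 was sixth there at 19.8 TPM, overlapping Dgat1 (16.3 TPM), which overlapped Gpam (15.2 TPM), and Abhd5 (10.6 TPM) and Mogat1 (1.98 TPM) came last without overlap.

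**Figure D4:**
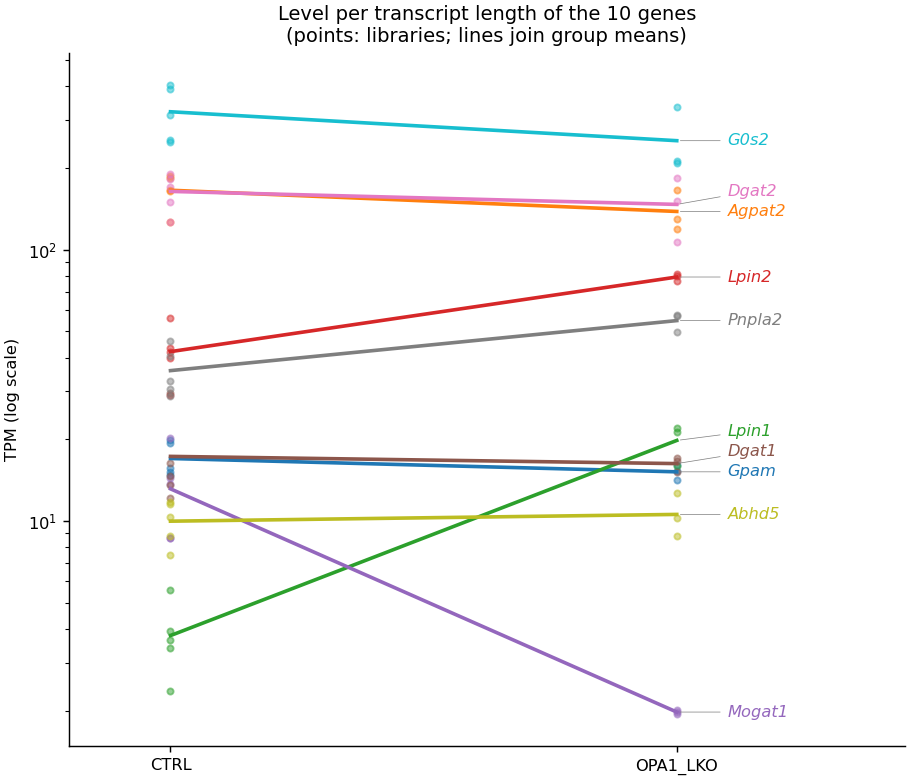
TPM of the 10 genes on a log axis in CTRL and OPA1_LKO; points are libraries and lines join group means. Lpin1 moves from the lowest place, at 3.78 TPM, to 19.8 TPM, and Mogat1 falls from 13.1 to 1.98 TPM, the lowest of the 10.

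The neighbouring steps of the pathway were read from 6 lists, which hold 76 genes, of which 71 were tested and 8 passed, 3 higher and 5 lower in OPA1_LKO, beside 6.03% of all tested genes called, 3.34% higher and 2.69% lower. Their median log2 fold change was -0.15. The count fell to 4 with limma on the log2(TPM + 1) scale and rose to 17 without CTRL replicate 1.

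Among the other acyltransferases of glycerol phosphate and lysophosphatidate, 2 of 8 tested genes were higher and 0 lower, at a list median of 0.12. Agpat9, the older symbol of Gpat3, which adds the first fatty acid at the endoplasmic reticulum, measured 14.7, 13.8, 17.7, 18.0 and 21.8 CPM in CTRL and 47.1, 24.0 and 29.1 CPM in OPA1_LKO. Its log2 fold change of 0.96 ± 0.22 (edgeR adjusted p 0.0359) was 0.62 without OPA1_LKO replicate 1, the highest library (adjusted p 0.177), and the call was also lost without CTRL replicate 2, 3 or 4 or OPA1_LKO replicate 3 (adjusted p 0.0506 to 0.0794). Agpat5, a mitochondrial member of the family, had a log2 fold change of 0.54 ± 0.14 (edgeR adjusted p 0.0487), lost without any one library other than CTRL replicate 1 (edgeR adjusted p 0.0507 to 0.232). Agpat4 (0.76 ± 0.49, and 0.22 without OPA1_LKO replicate 2) and Lclat1 (-0.11 ± 0.15) did not pass.

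Of 9 genes that use phosphatidate, 0 passed with edgeR, 3 had an unadjusted p under 0.05 and 1 passed with DESeq2. The lipid phosphatases Plpp3 and Plpp1 had the smallest p, at log2 fold changes of -0.86 ± 0.28 and 0.72 ± 0.25 (edgeR adjusted p 0.0961 and 0.112). Plpp3 passed without CTRL replicate 1 (edgeR adjusted p 0.0384) and not without any other library (0.0735 to 0.333, highest without OPA1_LKO replicate 3). Plpp1 was at 0.37 without OPA1_LKO replicate 2 (edgeR adjusted p 0.352). Among genes that use diacylglycerol in other ways, 2 of 9 were lower and 0 higher. Dgkq, a kinase that turns diacylglycerol back into phosphatidate, measured 19.0 to 22.3 CPM in CTRL and 9.58 to 14.9 CPM in OPA1_LKO (log2 fold change -0.74 ± 0.16, edgeR adjusted p 0.0234). Daglb, a diacylglycerol lipase, measured 18.1 to 23.2 CPM and 11.7 to 14.4 CPM (-0.66 ± 0.14, edgeR adjusted p 0.0229). Neither overlapped between groups. Both calls were lost without CTRL replicate 5 or OPA1_LKO replicate 1 or 2, that of Dgkq also without CTRL replicate 2 and that of Daglb also without OPA1_LKO replicate 3 (edgeR adjusted p 0.0508 to 0.131), and both were lost on the log2(TPM + 1) scale with limma (adjusted p 0.144 and 0.295). Dgkh (0.81 ± 0.35) and Mogat2 (-1.78 ± 1.01) did not pass, and Mogat2 was at -0.11 without CTRL replicate 3.

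In the supply of glycerol phosphate and acyl-CoA, 1 of 8 tested genes was higher and 1 lower. Gpd1, which makes glycerol phosphate from a glycolytic intermediate, fell from 344.7 to 473.9 CPM in CTRL to 217.2 to 267.8 CPM in OPA1_LKO (-0.79 ± 0.16, edgeR adjusted p 0.0188). Acsl4, an acyl-CoA synthetase that prefers arachidonate, measured 12.6 to 22.2 CPM in CTRL and 34.8 to 57.0 CPM in OPA1_LKO (1.28 ± 0.21, edgeR adjusted p 0.0105). The glycerol channel Aqp9 (-0.63 ± 0.21) and the glycerol kinase Gk (-0.49 ± 0.19) did not pass, though neither overlapped between groups; Aqp9 passed without CTRL replicate 1 (edgeR adjusted p 0.0360) and not without any other library (up to 0.325). The call of Acsl4 was lost without OPA1_LKO replicate 1 (edgeR adjusted p 0.0594), and that of Gpd1 without OPA1_LKO replicate 1 or 3 (0.105 and 0.106) and with limma on the log2(TPM + 1) scale (adjusted p 0.162).

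Of 19 other lipases and lipase regulators tested, 1 was lower and 0 higher, with a list median of -0.45. Ces1f, a carboxylesterase, measured 262.6 to 544.6 CPM in CTRL and 113.3 to 246.7 CPM in OPA1_LKO (-1.37 ± 0.31, edgeR adjusted p 0.0326). It belongs to a cluster of near-identical genes, so how reads were split between them is uncertain. Its call was lost without CTRL replicate 2, 4 or 5 or OPA1_LKO replicate 1 or 3 (edgeR adjusted p 0.0671 to 0.163). Mgll, the monoacylglycerol lipase, and Lipa, the lysosomal acid lipase, had log2 fold changes of -0.57 ± 0.15 and -0.66 ± 0.21 and did not pass (edgeR adjusted p 0.0550 and 0.0984). Mgll passed without CTRL replicate 1 (edgeR adjusted p 0.0385) and not without any other library (up to 0.209).

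Of 18 transcription factors and cofactors that act on these enzymes, 1 was lower and 0 higher, with a list median of -0.22. Among the 18, 7 had an unadjusted edgeR p under 0.05 and 5 passed with DESeq2. Cebpa, a factor of hepatocyte and adipocyte differentiation, measured 286.4 to 442.3 CPM in CTRL and 166.8 to 210.3 CPM in OPA1_LKO (-0.82 ± 0.18, edgeR adjusted p 0.0286). The call was lost without CTRL replicate 4 or any one OPA1_LKO library (edgeR adjusted p 0.0613 to 0.140) and with limma on the log2(TPM + 1) scale (adjusted p 0.128). Klf15 (0.63 ± 0.19, edgeR adjusted p 0.0774) and Pparg (-0.71 ± 0.21, edgeR adjusted p 0.0794) did not pass, nor did either pass without any 1 library. Klf15 passed in 4 of 8 other fits (upper-quartile scaling, DESeq2 and limma on both TPM scales), and Pparg passed with DESeq2 alone (adjusted p 0.0350).

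**Figure D5:**
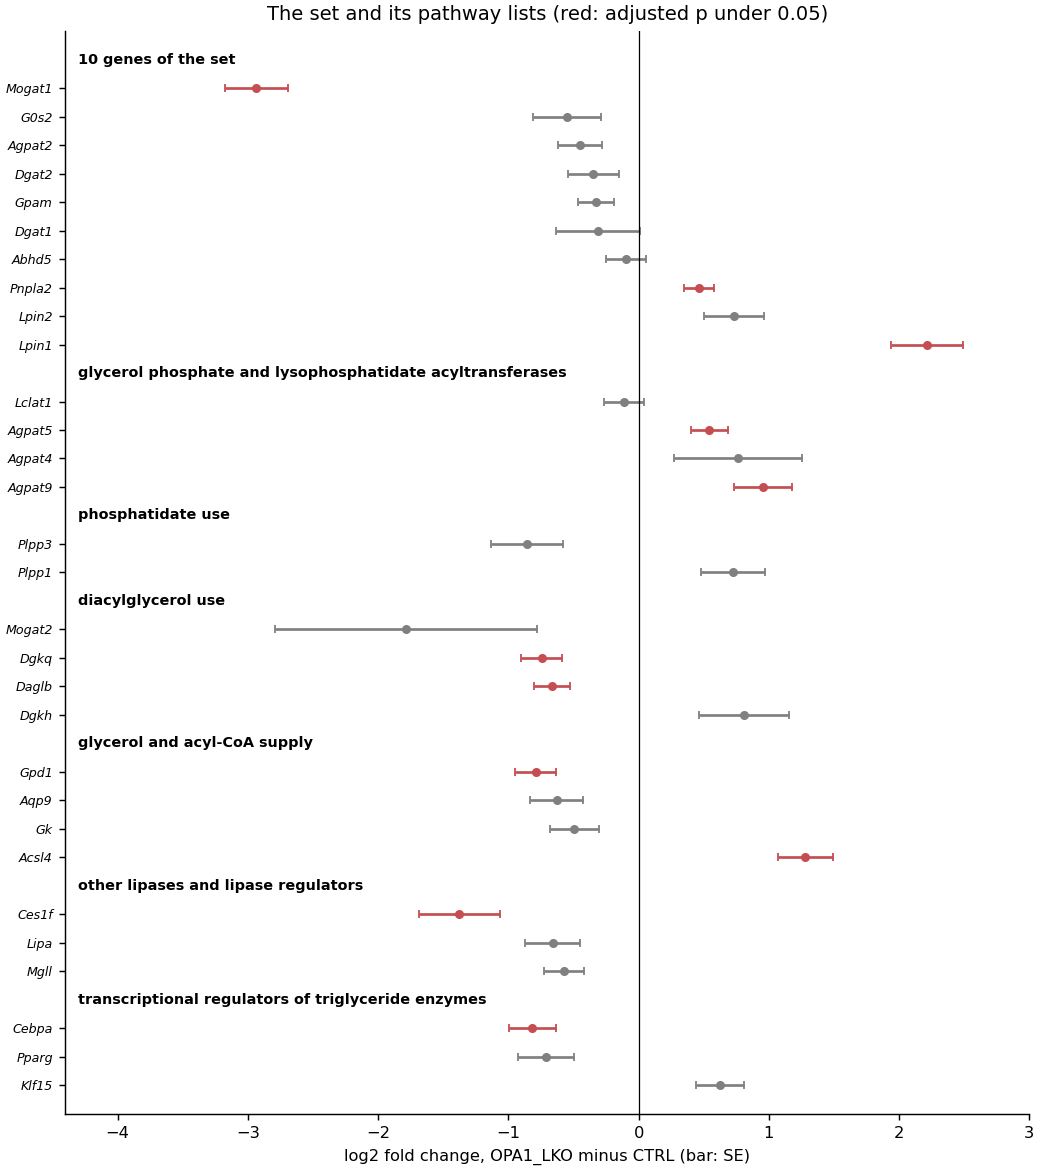
Log2 fold change of OPA1_LKO over CTRL on the horizontal axis, with bars for the SE, for the 10 genes and for the genes named from the 6 pathway lists; red points passed an adjusted p of 0.05 with edgeR. Mogat1 at -2.94 and Lpin1 at 2.21 lie farthest from 0, and 7 of the 10 genes are grey.

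The genes whose profile over the 8 libraries lay nearest to those of Lpin1 and Mogat1 were found among 8851 tested genes averaging 5 CPM or more, by the root mean square distance of log2 CPM centred on each gene's mean. Nearest to Lpin1 were Sgk1, a serine/threonine kinase (distance 0.36), Zbtb16, a zinc finger transcription factor (0.41), and Ddit4, an inhibitor of mTORC1 (0.42). Sgk1 measured 7.47 to 11.9 CPM in CTRL and 26.2 to 46.5 CPM in OPA1_LKO. Nearest to Mogat1 were Themis, known from T cell signalling (0.22), Clstn3, a calsyntenin (0.33), and the water channel Aqp8 (0.38). Themis measured 12.1 to 20.4 CPM in CTRL and 1.85 to 3.28 CPM in OPA1_LKO. These distances describe the shape over 8 libraries and were not tested.

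Promoter windows, from 250 bases before to 50 bases after a start site, were in the RefSeq table of GRCm38.p6 for 8 of the 10 genes, in 11 windows, and were searched on both strands for 7 motifs. The ATF4 element TGATGNAA was found in 1 Gpam window (22 bases before the start) and 1 Lpin2 window (194 bases before), and in 3.97% of all 32851 windows. The E-box CACGTG was found in another Lpin2 window (7.15% of all), and the FOXO site TGTTTAC in 1 Lpin2 window (3.65%). The glucocorticoid receptor hexamer AGAACA was in the Lpin1 window and 1 Lpin2 window (18.97%), and the CCAAT box in 3 windows, of Gpam, Lpin2 and Mogat1 (37.4%). The PPRE (0.0396%) and the sterol element TCACNCCAC (1.24%) had no match in the 11 windows. No match overlapped another. The Lpin1 window, chr12:16610917-16611216, belongs to another start than that of the 3 measured transcripts, which begin near position 16589770. A match is a description of letters, and binding was not measured.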

How the data were processed

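RNA of 8 liver samples (5 CTRL, 3 OPA1_LKO) was sequenced from stranded, poly(A)-selected libraries, per the labels' protocols. Build mm10 and the tools STAR, StringTie, RSEM and MultiQC (no versions) come from the submitters' processing notes; no source used here gives the annotation release or the strand setting of counting. The authors deposited expected counts per gene and per transcript, as estimated by RSEM and not normalised, and TPM, a level per length, for the same features. Every value column belongs to 1 of the 8 samples.

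Expected counts of genes were rounded. Genes passing filterByExpr's default (a count of 10 in a typical library, 15 in total) were scaled by TMM and compared in edgeR 4.0.16 (R 4.3.3; quasi-likelihood test, no covariate beside group) with Benjamini-Hochberg adjustment over 14036 genes; the SE is the fold change over the root of F. Lpin1 transcripts were compared by exact permutation over 56 divisions in SciPy 1.17.1, with the one-sided p doubled. The procedure was tested on simulated data. Alternatives were DESeq2 1.42.0, limma 3.58.1 (voom, and log2(TPM + 1) or log2(TPM + 0.1)), other scalings, no filter, a replicate block and leaving out each library.

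Named pathway genes were those of each list that passed and the 2 of smallest p that did not; for Lpin1 and Mogat1 the 3 nearest profiles were named. The 10 genes, the lists and the tests were chosen with earlier results of these data known. Apoe, Xist and the small intestine and pancreas lists were chosen after their values were seen. Gpat3 and Tf were matched through RefSeq synonyms (Agpat9, Trf), and Trbc2 was not matched. In the RefSeq table Gpam, Lpin1 and Mogat1 overlap other genes (Gm31356, Gm31418, Ntsr2 and Gm39665), which reached at most 57 reads in any library.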

Additional observations from a re-analysis of the deposited data

Results flagged for a closer look

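Of 41 sets of 5 CTRL values examined with Dixon's test at the 95% level, 4 had a library far from the other 4; chance flags about 1 set in 20, and groups of 3 were not tested. CTRL replicate 3 was the library in 3 of the 4. Dgat1 was at 47.75 CPM in it, against 16.4 to 23.3 CPM in the other CTRL libraries. Dgat1 made up 19.03% of the summed TPM of Dgat1 and Dgat2 there, against 5.99% to 8.94%. This flag is not separate from that of Dgat1 itself, since both use the high Dgat1 level of CTRL replicate 3. Mogat2 was at 6.32 CPM in it, against 0.337 to 0.744 CPM. Small intestine markers were high in the same library, and their part in these values was not tested. Lipa, the lysosomal acid lipase, was at 162.3 CPM in CTRL replicate 5, against 103.4 to 117.5 CPM in the other CTRL libraries.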

How the results depend on the processing

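Lpin1 and Mogat1 passed with the same direction under all 16 alternatives, and the count of the 10 genes that passed stayed between 2 and 4. The count over all genes was 846, and 1596 with DESeq2, 560 on the log2(TPM + 0.1) scale, 367 with the replicate block and 198 to 1701 without 1 library; the count over the pathway lists was 8, and 17, 4, 3 and 0 to 17 respectively, with 4 also on the log2(TPM + 1) scale. The lowest counts came without OPA1_LKO replicate 1 and the highest without CTRL replicate 1. Deviations from the group mean were weakly correlated between same-numbered libraries (r 0.0720, 0.0537 and 0.175). The same-numbered CTRL library was still the best match among CTRL for OPA1_LKO replicates 1 and 3, and CTRL replicate 5 was for replicate 2. The numbers were not taken as pairs. With the replicate block in edgeR Lpin2 passed (adjusted p 0.0427) and Pnpla2 did not (0.123). Log2 fold changes turned direction for Dgat1, between -0.437 and 0.0689 without 1 library (above 0 without CTRL replicate 3), for Abhd5, at 0.0782 and 0.0856 on the log2(TPM + 1) and log2(TPM + 0.1) scales and between -0.238 and 0.00538 without 1 library (above 0 without OPA1_LKO replicate 3), and for Lclat1, at 0.0585 and 0.0698 on those scales and 0.0545 with the block; the cause was not tested. The TPM scales moved the median of all genes by 0.13 and 0.18 (log2). Transcript counts in place of TPM, or all Lpin1 transcripts above 0 TPM, left 0 adjusted calls. The smallest p of the permutation test is 0.0357 before adjustment, so these 0 calls say nothing against a difference. Without 1 library the doubled permutation p cannot fall under 0.05. Mogat1's 20 to 39 reads in OPA1_LKO limit its fold change.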
